A study of Mus musculus with 18 samples.

Results

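Pitx1, Pitx3, Alx1, Alx4, Barx1 and Barx2 encode homeodomain transcription factors of the embryonic face, limb, eye, midbrain, foregut and muscle. The 6 genes were chosen by name and matched to the deposited table through their gene identifiers, and all 6 of them were found among the 56551 genes listed. None of the 6 genes reached 1 TPM in all 3 wild-type libraries (TPM is the share of transcripts assigned to a gene, scaled so that each library sums to 1000000). In the libraries labelled as lacking both Ring1a and Ring1b, the 6 genes stood at means from 1.03 TPM (Barx2) to 29.9 TPM (Barx1).

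The series profiled total RNA of mouse embryonic stem cells in 6 groups of 3 libraries each. The groups were wild type (WT), Ring1a-KO, Ring1b-KO, the combined knockout of both genes (Ring1a/b-dKO), Pcgf-4KO, which lacks Pcgf1, Pcgf3, Pcgf5 and Pcgf6, and Pcgf-6KO, which lacks Pcgf2 and Pcgf4 as well. No treatment, time, strain or clone is given for any group, and nothing says whether the 3 replicates are separate cultures. The p-values therefore measure the spread between these libraries, which may be technical.

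RING1A and RING1B (genes Ring1 and Rnf2) are the alternative catalytic subunits of Polycomb repressive complex 1 (PRC1), which adds ubiquitin to histone H2A and holds developmental regulators silent in stem cells. The PCGF protein paired with them sets the kind of complex: PCGF2 and PCGF4 (gene Bmi1) form canonical PRC1, while PCGF1, PCGF3, PCGF5 and PCGF6 form variant PRC1. Pitx, Alx and Barx genes are silent or nearly so in embryonic stem cells and are switched on in restricted regions of the embryo. CpG-rich promoters of silent developmental genes are known Polycomb targets in stem cells. PITX and ALX proteins have paired-class homeodomains, and BARX proteins belong to the antennapedia class.

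On GRCm38, the protein-coding genes lie apart from each other on 5 chromosomes. Pitx1 (ENSMUSG00000021506) spans chr13:55825051-55836192 on the minus strand and Pitx3 (ENSMUSG00000025229) spans chr19:46135685-46148326 on the minus strand. Alx1 (ENSMUSG00000036602) spans chr10:102998707-103030215 on the minus strand and Alx4 (ENSMUSG00000040310) spans chr2:93642384-93681339 on the plus strand. Barx1 (ENSMUSG00000021381) is a compact gene at chr13:48662998-48666507 on the plus strand, and Barx2 (ENSMUSG00000032033) spans chr9:31846044-31913462 on the minus strand.

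RefSeq promoter windows (GRCm38.p6) were matched for 2 of the 6 genes, Pitx3 and Barx1. Their sequence upstream of the annotated start is shown 5′ to 3′ on the gene's own strand because the CpG content of the pair differs. Capitals mark each CG dinucleotide.
Pitx3, chr19:46148327-46148575, minus strand: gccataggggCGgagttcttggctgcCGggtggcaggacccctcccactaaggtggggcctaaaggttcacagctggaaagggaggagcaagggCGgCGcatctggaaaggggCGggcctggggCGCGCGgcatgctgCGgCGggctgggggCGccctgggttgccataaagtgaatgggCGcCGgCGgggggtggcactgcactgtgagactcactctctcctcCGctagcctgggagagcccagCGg
Barx1, chr13:48662786-48662997, plus strand: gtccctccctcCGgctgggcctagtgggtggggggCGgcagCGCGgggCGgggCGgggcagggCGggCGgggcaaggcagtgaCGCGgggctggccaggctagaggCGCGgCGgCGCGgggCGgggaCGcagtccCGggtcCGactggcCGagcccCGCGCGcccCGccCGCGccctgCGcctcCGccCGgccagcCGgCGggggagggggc
The printed Pitx3 stretch of 249 bases holds 16 CG dinucleotides, and the printed Barx1 stretch of 212 bases holds 31. Over the whole RefSeq window of 300 bases, Barx1 had 50 CG dinucleotides and 84.7% GC, more CG dinucleotides than 99.1% of 32851 promoter windows. Pitx3 had 20 CG dinucleotides and 71.7% GC, more CG dinucleotides than 73.5% of the windows, whose median was 7. Of 4 motifs searched on both strands, neither window held CACGTG (an E-box, in 7.2% of windows), TTCCCGC (an E2F type site, in 4.6%), TAATCC (the core bound by PITX proteins, in 7.1%) or TATAAA (in 13.6%). None of these 4 motifs is contained in another, and no match says only that these letters are not in these windows.

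The stem cell label was checked against marker genes. All 6 stem cell markers (Pou5f1, Sox2, Nanog, Esrrb, Zfp42 and Tdgf1) were at 1 TPM or more in every group, and their summed level was 2340 to 2350 TPM in WT and 2200 to 2400 TPM in Ring1a-KO. That sum was 2790 to 2880 TPM in Ring1b-KO, 1150 to 1200 TPM in Ring1a/b-dKO, 1320 TPM, to 3 digits, in each Pcgf-4KO library and 646 to 674 TPM in Pcgf-6KO. Single stem cell markers did not all follow the sum. By limma at an adjusted p under 0.05, Ring1b-KO had 4 of the 6 higher than WT and 2 lower. Ring1a/b-dKO had 2 higher against 4 lower, Pcgf-4KO 2 against 3, Pcgf-6KO 1 against 5 and Ring1a-KO 3 against 0. Over all genes tested, the shares called higher and lower were 34.7% and 17.1% in Ring1b-KO and 48.6% and 15.8% in Ring1a/b-dKO. They were 47.1% and 17.9% in Pcgf-4KO, 51.7% and 22.5% in Pcgf-6KO and 12.3% and 10.8% in Ring1a-KO. The summed level of 6 trophoblast markers was 22.6 to 23.2 TPM in WT, 21.7 to 22.9 in Ring1a-KO, 60.4 to 62.7 in Ring1b-KO, 241 to 255 in Ring1a/b-dKO, 256 to 269 in Pcgf-4KO and 674 to 697 in Pcgf-6KO. The summed level of 6 primitive endoderm markers was 2.68 to 2.95 TPM in WT, 3.56 to 3.95 TPM in Ring1a-KO and between 25.5 and 41 TPM in those 4 knockout groups. Of 6 fibroblast markers, which embryonic feeder cells would carry, the sum was 12.9 to 15.3 TPM in WT and between 7.66 and 23.4 TPM elsewhere, with Lum listed at 0 in all Ring1b-KO and Ring1a/b-dKO libraries. Thy1 was the only 1 of them at a mean of 1 TPM or more in WT, Pcgf-4KO and Pcgf-6KO. In the other groups Col1a1 reached it too. The markers of trophoblast and primitive endoderm moved with the 4 groups in which the homeobox genes were higher, and their part in the results was not tested. In such bulk libraries, more cells with a transcript and more of the transcript per cell cannot be told apart. Ring1a-KO replicates 2 and 3 stood apart in that 2.883% and 1.318% of their TPM was small RNA, against 0.21% to 0.666% in the other libraries. The mitochondrial share of TPM was 6.38% to 6.88% in WT, 6.95% to 7.34% in Ring1b-KO, 5.98% to 6.19% in Pcgf-4KO, 5% to 5.42% in Ring1a/b-dKO and 3.58% to 4.65% in Pcgf-6KO, and its part in the results was not tested.

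The knocked-out genes were then read, although a deleted exon cannot be seen in gene-level TPM. Of 14 pairs of a knocked-out gene and a group, 7 were called lower than WT, 3 higher and 4 neither. Ring1, which encodes RING1A, was not called lower in either group that lacks it by label: the log2 change was -0.73 in Ring1a-KO (limma, adjusted p = 0.0705) and -0.33 in Ring1a/b-dKO (adjusted p = 0.311). The libraries labelled Ring1a/b-dKO held 2.74, 6.12 and 9.4 TPM of Ring1, and the one labelled replicate 3 was above every WT library (7.42, 7.1 and 7.11 TPM). Rnf2, which encodes RING1B, was lower in Ring1b-KO (-0.52) and in Ring1a/b-dKO (-1.61, with 24.74, 24.15 and 19.38 TPM against 65.92 to 76.4 TPM in WT). In Pcgf-6KO, Pcgf1, Pcgf2 and Pcgf6 were lower, Bmi1 (2.72) and Pcgf5 (1.13) were higher and Pcgf3 was not called. In Pcgf-4KO, Pcgf1 and Pcgf6 were lower, Pcgf5 was higher (0.55) and Pcgf3 was not called. Groups are therefore named by their labels throughout.

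**Figure D1:**
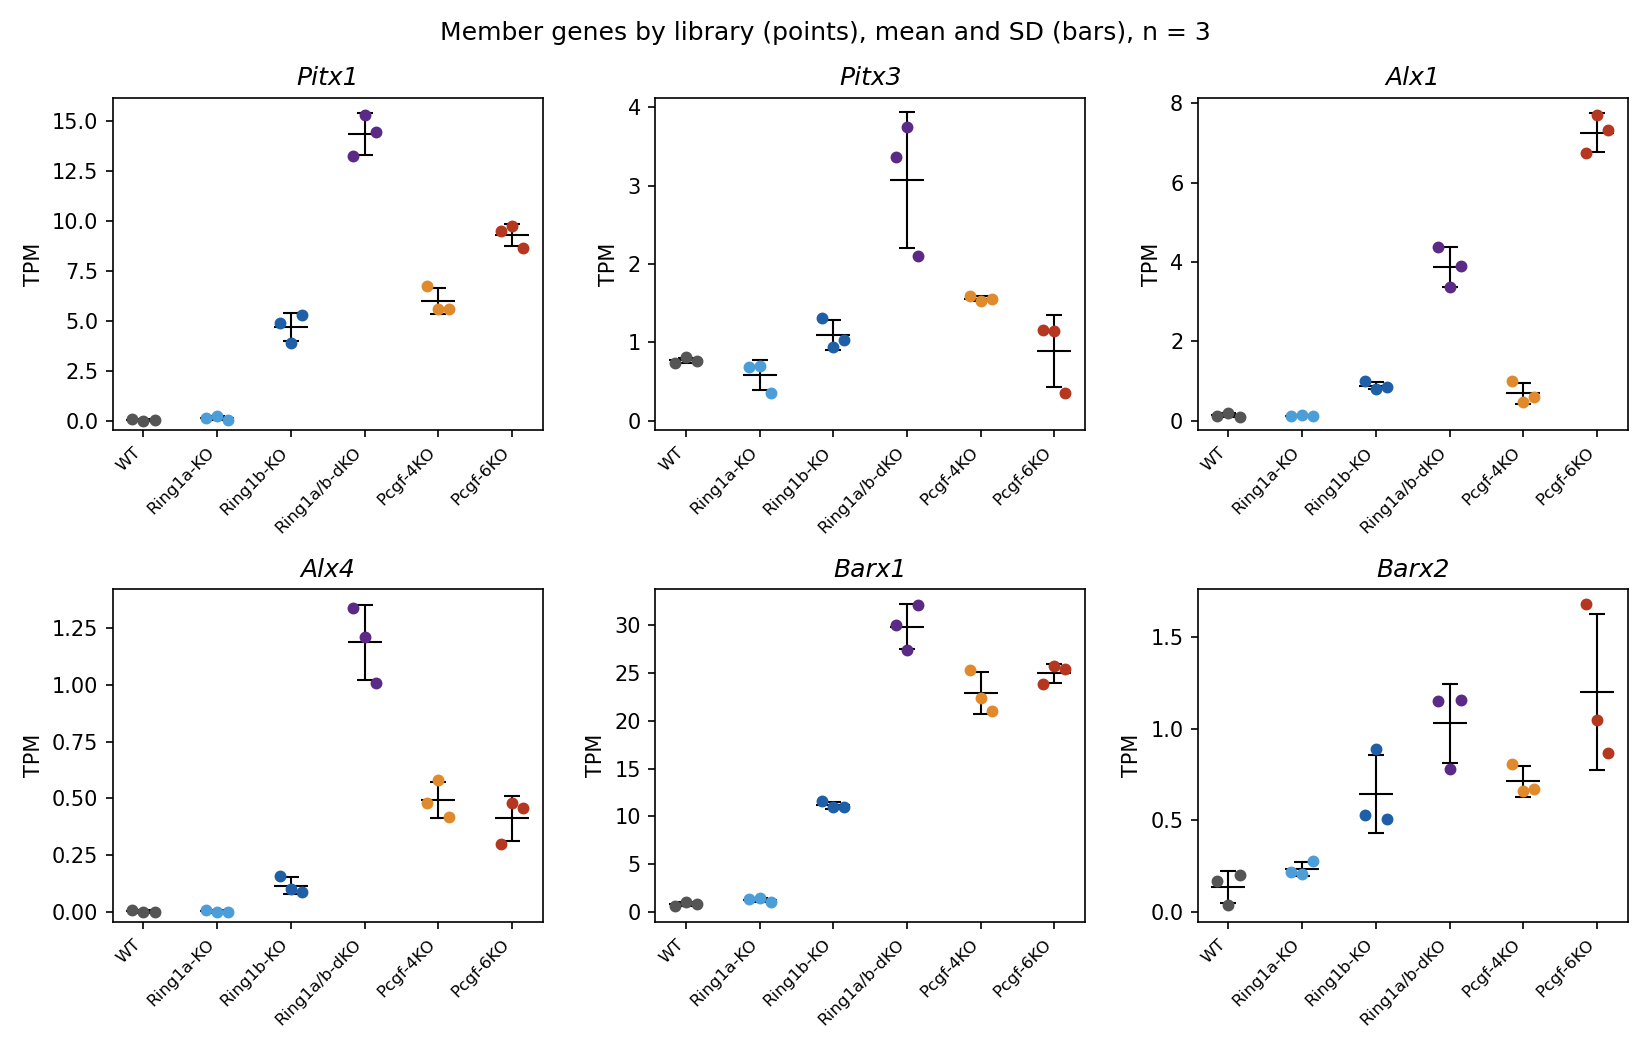
Level of the 6 homeobox genes in each library. Each panel is 1 gene, the vertical axis is TPM on a linear scale of its own, points are the 3 libraries of each group and the bars give their mean and SD. WT and Ring1a-KO lie near 0 in the panels of Pitx1, Alx1, Alx4 and Barx1, while Alx1 is highest in Pcgf-6KO and Pitx1, Pitx3, Alx4 and Barx1 in Ring1a/b-dKO.

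The question in each comparison with WT was which of these low genes stood higher once a given PRC1 component was missing. Values were taken as log2(TPM + 1), a scale that understates the change of low genes, and tested with limma over the 17842 genes that reached 1 TPM in 3 or more libraries, with Benjamini-Hochberg adjustment and a call at an adjusted p under 0.05. The 6 genes passed that filter through knockout libraries alone, so higher values there were part of how they came to be tested, and the counts are descriptions. In Ring1a/b-dKO all 6 genes were called higher, where 48.6% of all genes tested were called higher. In Pcgf-4KO all 6 were called higher, beside 47.1% of all genes. In Pcgf-6KO 5 of the 6 were called higher, beside 51.7% of all genes, and Pitx3 was the exception. In Ring1b-KO 4 of the 6 were called higher, beside 34.7% of all genes, and Pitx3 and Alx4 were not called. In Ring1a-KO only Barx1 was called higher, beside 12.3% of all genes. None of the 6 was called lower in any comparison with WT, where the share of all genes called lower was 10.8% in Ring1a-KO, 17.1% in Ring1b-KO, 15.8% in Ring1a/b-dKO, 17.9% in Pcgf-4KO and 22.5% in Pcgf-6KO.

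The median log2 change of the 6 genes was 0.06 in Ring1a-KO, 0.63 in Ring1b-KO, 1.64 in Ring1a/b-dKO, 0.58 in Pcgf-4KO and 1.9 in Pcgf-6KO. Over all genes tested the medians were 0.009, 0.132, 0.283, 0.248 and 0.332 in the same order. Among the 3622 tested genes under 1 TPM in WT, the shares called higher were 6.82%, 49.1%, 55.5%, 54.2% and 71%, and the median log2 changes were 0.03, 0.46, 0.59, 0.52 and 0.91. The split of calls over all genes depended on the scaling: 75.5% of the genes called in Ring1a/b-dKO were higher with TPM as deposited, 51% after median ratio scaling and 48.2% after quantile normalization. The same shares were 67%, 50.7% and 46.4% in Ring1b-KO, 72.5%, 50.2% and 49.6% in Pcgf-4KO, and for Pcgf-6KO 69.6%, 53% and 46.6%. Under quantile normalization, 6 of the 6 genes were called higher in Ring1a/b-dKO, 3 in Ring1b-KO, 3 in Pcgf-4KO and 4 in Pcgf-6KO, where Pitx3 was called lower. The genes called in either direction then numbered 11059, 9265, 11233 and 12902 of 17842 in that order. The shares of 48.2%, 46.4%, 49.6% and 46.6% called higher are of those called genes, not of all genes tested.

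**Figure D2:**
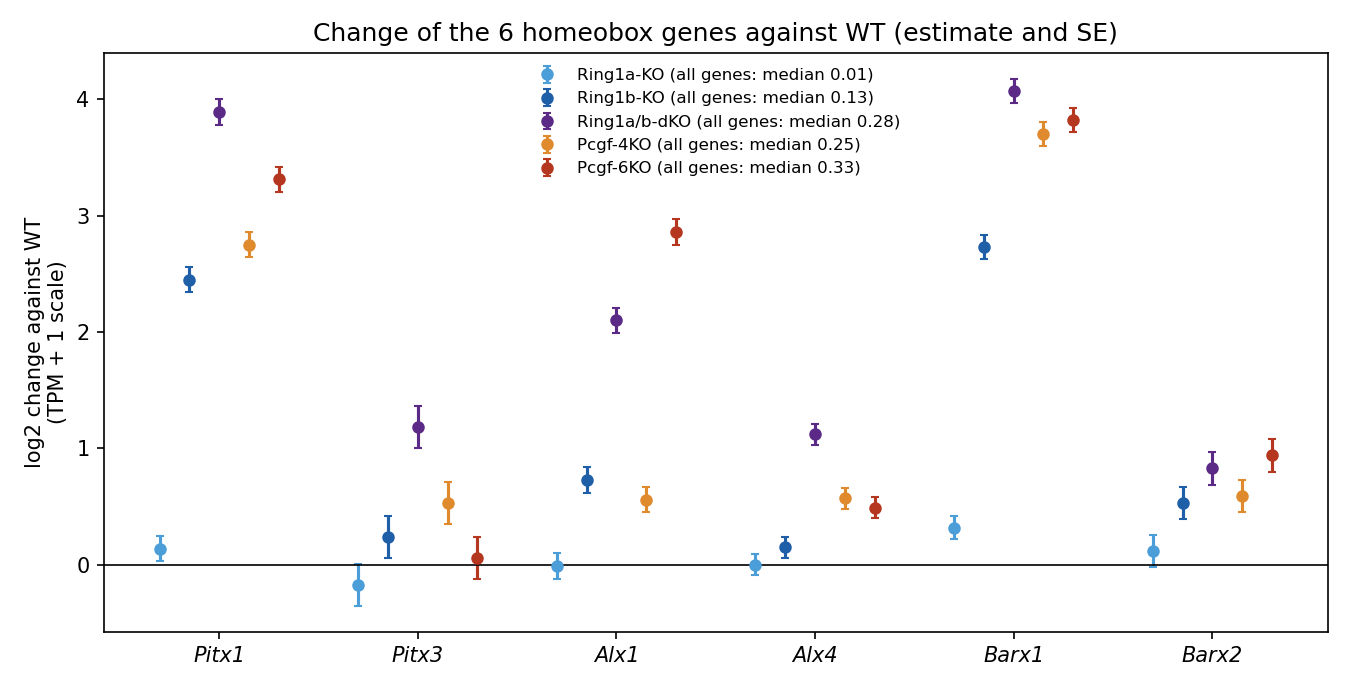
Change of the 6 homeobox genes against WT. The vertical axis is the log2 change on the TPM + 1 scale, points are estimates for the 5 knockout groups and bars are standard errors. The Ring1a-KO points lie between -0.17 and 0.32, and Barx1 and Pitx1 reach 4.07 and 3.89 in Ring1a/b-dKO.

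Pitx1, which sets hindlimb identity and acts in the pituitary, rose from the edge of detection. Its WT libraries were at 0.08, 0 and 0.03 TPM and its Ring1a-KO libraries at 0.15, 0.25 and 0.04 TPM. It stood at 4.92, 3.9 and 5.28 TPM in Ring1b-KO and at 13.25, 15.33 and 14.46 TPM in Ring1a/b-dKO. Every library of these knockout groups was above every WT and Ring1a-KO library, and those of Ring1a/b-dKO were above all others. The Pcgf-4KO libraries were at 6.76, 5.62 and 5.59 TPM and the Pcgf-6KO libraries at 9.52, 9.73 and 8.67 TPM. Against WT, the log2 change was 2.45 ± 0.11 (SE) in Ring1b-KO (limma, adjusted p = 5.51e-11), 3.89 in Ring1a/b-dKO (adjusted p = 1.57e-13), 2.75 in Pcgf-4KO (adjusted p = 6.97e-12) and 3.31 in Pcgf-6KO (adjusted p = 4.15e-13). The Ring1a-KO value was 0.14, with a 95% interval from -0.09 to 0.37 and an adjusted p of 0.386, and it was called with a pseudocount of 0.1 TPM (0.8, adjusted p = 0.0441). The group means, from the lowest, ran WT, Ring1a-KO, Ring1b-KO, Pcgf-4KO, Pcgf-6KO and Ring1a/b-dKO, and only the step from WT to Ring1a-KO was not called. The step from Ring1b-KO to Pcgf-4KO was the least firm of those called, at 0.3 (adjusted p = 0.0259), and 8 of 28 alternative settings lost it, among them those without Ring1b-KO replicate 2 (0.19) or Pcgf-4KO replicate 1 (0.22). Gm47071, a transcript annotated antisense over Pitx1, had group means between 0.83 and 1.41 TPM, with the highest in Ring1a-KO.

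Pitx3, required in the lens and in midbrain dopaminergic neurons, was called higher in Ring1a/b-dKO and Pcgf-4KO alone. It was already listed at 0.74, 0.81 and 0.76 TPM in WT, and at 0.69, 0.7 and 0.36 TPM in Ring1a-KO. Every Ring1a-KO library was below every WT library, but the log2 change of -0.17 was not called (95% interval -0.55 to 0.22, limma, adjusted p = 0.566). The Ring1a/b-dKO libraries held 3.37, 3.75 and 2.1 TPM, all above every other library of the series. Its mean there was 3.07 ± 0.86 TPM (SD, n = 3), 3.99 times the WT mean, a log2 change of 1.18 ± 0.18 (SE; limma, adjusted p = 3.23e-05). The Pcgf-4KO libraries were tightly grouped at 1.59, 1.53 and 1.55 TPM, a log2 change of 0.53 (adjusted p = 0.0173). That call was lost after median ratio scaling (0.36, adjusted p = 0.091) and after quantile normalization (0.19, adjusted p = 0.377). Ring1b-KO, at 1.31, 0.94 and 1.03 TPM, did not pass the test, with a log2 change of 0.24 (95% interval -0.15 to 0.62, adjusted p = 0.291) that quantile normalization turned to -0.18. In TPM as deposited, every Ring1b-KO library was above every WT library. In Pcgf-6KO the libraries disagreed, with 1.16 and 1.15 TPM in replicates 1 and 2 and 0.36 TPM in replicate 3, below every WT library. The log2 change was 0.06 (95% interval -0.32 to 0.45, adjusted p = 0.764), and quantile normalization turned it to -0.53 (adjusted p = 0.0155).

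Alx1, a factor of the frontonasal mesenchyme whose loss disturbs the closing of the cranium and face, was the 1 gene of the 6 with a higher level in Pcgf-6KO than in Ring1a/b-dKO by the test. It stood at 0.12, 0.19 and 0.1 TPM in WT and at 0.12, 0.15 and 0.12 TPM in Ring1a-KO. Ring1b-KO held 0.99, 0.81 and 0.85 TPM and Pcgf-4KO 0.99, 0.48 and 0.61 TPM. These ranges overlapped each other and lay above both WT and Ring1a-KO. The Ring1a/b-dKO libraries were at 4.38, 3.37 and 3.91 TPM and the Pcgf-6KO libraries at 6.74, 7.72 and 7.32 TPM, with no overlap between the 2 groups. Against WT the log2 changes were 0.73 ± 0.11 (SE) in Ring1b-KO (limma, adjusted p = 5.54e-05), 0.56 in Pcgf-4KO (adjusted p = 3.58e-04), 2.1 in Ring1a/b-dKO (adjusted p = 2.53e-10) and 2.86 in Pcgf-6KO (adjusted p = 3.60e-12). The Pcgf-4KO call was lost under quantile normalization (0.26, adjusted p = 0.0557). On the TPM scale the mean in Pcgf-6KO was 53.1 times that in WT, against 28.4 times in Ring1a/b-dKO and 5.07 times in Pcgf-4KO. Pcgf-4KO and Ring1b-KO did not differ by the test, at -0.16 (95% interval -0.4 to 0.07, adjusted p = 0.222), although without Pcgf-4KO replicate 1 Alx1 was called lower there (-0.29, adjusted p = 0.0335).

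Alx4, which patterns the anterior limb bud and the skull, stayed the lowest of the 6 in TPM in WT. It was listed at 0.01, 0 and 0 TPM both in WT and in Ring1a-KO, so no fold is given against those groups. It reached 0.16, 0.1 and 0.09 TPM in Ring1b-KO and 1.34, 1.21 and 1.01 TPM in Ring1a/b-dKO, the only group in which a library passed 1 TPM. Alx4 thus passed the filter through Ring1a/b-dKO alone, and its calls in comparisons with that group are descriptions. The Pcgf-4KO libraries were at 0.48, 0.58 and 0.42 TPM and the Pcgf-6KO libraries at 0.3, 0.48 and 0.46 TPM, overlapping each other. The log2 change against WT was 1.12 ± 0.09 (SE) in Ring1a/b-dKO (limma, adjusted p = 3.20e-08), 0.57 in Pcgf-4KO (adjusted p = 4.72e-05) and 0.49 in Pcgf-6KO (adjusted p = 1.57e-04). Quantile normalization took the Pcgf-6KO value to 0.12 (adjusted p = 0.28). In Ring1b-KO the value was 0.15 (95% interval -0.04 to 0.35, adjusted p = 0.174), although every Ring1b-KO library was above every WT library. With a pseudocount of 0.1 TPM in place of 1 that difference was called, at 1.06 (adjusted p = 0.00933). Ext2, a glycosyltransferase gene, lies over Alx4 on the opposite strand and was at 22.8 TPM in WT and 41 TPM in Pcgf-4KO. Ext2 covers only the part of Alx4 from chr2:93661028 onward. Whether counting used strand is not given in the sources used here. Without strand, reads from a stretch that both genes share cannot be told apart.

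Barx1, a factor of stomach and molar tooth mesenchyme, had the highest mean TPM of the 6 in every group. In WT its mean was 0.84 TPM, close to the 0.77 TPM of Pitx3. The Barx1 libraries were at 0.62, 1.04 and 0.86 TPM in WT, and at 11.61, 10.95 and 10.95 TPM in Ring1b-KO. They were at 30.01, 27.45 and 32.1 TPM in Ring1a/b-dKO, 25.36, 22.41 and 21.05 TPM in Pcgf-4KO and 23.8, 25.69 and 25.38 TPM in Pcgf-6KO. All libraries of these groups were at least at 10.95 TPM, and none of WT or Ring1a-KO was above 1.42 TPM. The mean was 13.3 times that of WT in Ring1b-KO, 35.5 times in Ring1a/b-dKO, 27.3 times in Pcgf-4KO and 29.7 times in Pcgf-6KO. On the log2 scale the changes were 2.73 ± 0.1 (SE; limma, adjusted p = 5.66e-12), 4.07 (adjusted p = 3.40e-14), 3.7 (adjusted p = 7.39e-14) and 3.82 (adjusted p = 2.95e-14). Pcgf-4KO and Pcgf-6KO overlapped, and their difference of 0.12 (95% interval -0.09 to 0.33) had an adjusted p of 0.321. Ring1a-KO libraries were at 1.41, 1.42 and 1.03 TPM, a log2 change of 0.32 (adjusted p = 0.0295). Replicate 3 of Ring1a-KO fell inside the WT range. That call was lost with no filter on low genes, with only the compared groups in the fit, and without WT replicate 1 or 3 or Ring1a-KO replicate 1 or 2.

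Barx2, which acts in muscle and in epithelia with hair follicles, had the smallest log2 change of the 6 in Ring1a/b-dKO. Its WT libraries were at 0.17, 0.04 and 0.2 TPM and its Ring1a-KO libraries at 0.22, 0.21 and 0.28 TPM, just above them. Ring1b-KO held 0.53, 0.89 and 0.51 TPM and Pcgf-4KO 0.81, 0.66 and 0.67 TPM. Ring1a/b-dKO held 1.15, 0.78 and 1.16 TPM and Pcgf-6KO 1.68, 1.05 and 0.87 TPM. Each of these 4 groups was above WT in every library, and neighbouring groups overlapped each other. The log2 changes against WT were 0.53 ± 0.14 (SE) in Ring1b-KO (limma, adjusted p = 0.00457), 0.83 in Ring1a/b-dKO (adjusted p = 6.64e-05), 0.59 in Pcgf-4KO (adjusted p = 0.00132) and 0.94 in Pcgf-6KO (adjusted p = 1.52e-05). Under quantile normalization the Ring1b-KO value was 0.15 (adjusted p = 0.431) and the Pcgf-4KO value 0.3 (adjusted p = 0.0938). The Ring1a-KO value was 0.12 (95% interval -0.17 to 0.42, adjusted p = 0.58).

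The next question was how the libraries labelled Ring1a/b-dKO differed from those labelled Ring1b-KO, with the limit that the level of Ring1 did not separate the former from WT. A second limit is Rnf2, whose log2 change against WT was -0.52 in Ring1b-KO and -1.61 in Ring1a/b-dKO. The part of that lower Rnf2 level in the differences below was not tested. Ring1a/b-dKO exceeded Ring1b-KO for 5 of the 6 genes, beside 41.1% of all genes called higher in that comparison. The log2 differences were 1.43 for Pitx1 (limma, adjusted p = 2.22e-08), 1.37 for Alx1 (adjusted p = 5.59e-08), 1.34 for Barx1 (adjusted p = 1.74e-08), 0.97 for Alx4 (adjusted p = 2.69e-07) and 0.94 for Pitx3 (adjusted p = 3.39e-04). For Barx2 the difference was 0.31 (95% interval 0.02 to 0.6, adjusted p = 0.0654), which was called without Ring1b-KO replicate 2 (0.41) or Ring1a/b-dKO replicate 2 (0.4), and when Pcgf-6KO replicate 1 or 3 was left out of the fit. In Ring1a-KO 1 of these genes had been called against WT, so the size of the change in Ring1a/b-dKO was set against the sum of the single ones. The interaction term (the change in Ring1a/b-dKO less the changes in Ring1a-KO and Ring1b-KO) was positive and called for the same 5 genes, beside 33.2% of all genes. It was 1.38 ± 0.16 (SE) for Alx1 (limma, adjusted p = 4.20e-06), 1.29 ± 0.15 for Pitx1 (adjusted p = 5.41e-06), 1.11 ± 0.25 for Pitx3 (adjusted p = 0.0021), 1.02 ± 0.14 for Barx1 (adjusted p = 2.11e-05) and 0.97 ± 0.13 for Alx4 (adjusted p = 1.84e-05). For Barx2 it was 0.18 ± 0.19 (95% interval -0.23 to 0.6, adjusted p = 0.46). The term depends on the scale for the lowest genes: with a pseudocount of 0.1 TPM, that of Pitx1 was 0.8 (adjusted p = 0.101). Without the library labelled Ring1a/b-dKO replicate 3, the same 5 genes were called in both comparisons. Alx4 passed the filter through the 3 Ring1a/b-dKO libraries alone, and the filter was not repeated without replicate 3. Its calls here are therefore descriptions.

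The Pcgf groups were then compared with Ring1a/b-dKO. Relative to Ring1a/b-dKO, 5 of the 6 genes were lower in Pcgf-4KO, beside 22.1% of all genes called lower. The Pcgf-4KO mean was 17.8% of the Ring1a/b-dKO mean for Alx1, 41.6% for Alx4, 41.8% for Pitx1, 50.7% for Pitx3 and 76.8% for Barx1. The log2 differences were -1.54 for Alx1 (limma, adjusted p = 7.47e-08), -1.14 for Pitx1 (adjusted p = 1.16e-06), -0.65 for Pitx3 (adjusted p = 0.0105), -0.55 for Alx4 (adjusted p = 2.44e-04) and -0.37 for Barx1 (adjusted p = 0.00811). Since Alx4 passed the filter through the Ring1a/b-dKO libraries alone, its lower calls in both Pcgf groups are descriptions, and the counts here include them. Barx2 was at 69.3% of that mean, a difference of -0.24 (95% interval -0.53 to 0.05, adjusted p = 0.188). In Pcgf-6KO against Ring1a/b-dKO, 4 of the 6 were called lower, beside 29.6% of all genes, and Alx1 was called higher, beside 28.3%. Alx1 stood at 187% of the Ring1a/b-dKO mean, a log2 difference of 0.76 (adjusted p = 3.20e-05). Pitx1 was at 64.9% (-0.57, adjusted p = 2.95e-04), Alx4 at 34.8% (-0.63, adjusted p = 2.82e-05), Pitx3 at 29% (-1.12, adjusted p = 8.07e-05) and Barx1 at 83.6% (-0.25, adjusted p = 0.0408). The Barx1 call was lost in 11 of 28 alternative settings, including those without Ring1a/b-dKO replicate 1 or 3, Pcgf-4KO replicate 2 or any 1 Pcgf-6KO library, and its value in those 11 settings ran from -0.27 to -0.2. The Pitx3 call in Pcgf-4KO was lost without Ring1a/b-dKO replicate 2 (-0.53, adjusted p = 0.055). It was also lost with a pseudocount of 0.1 TPM (-0.9, adjusted p = 0.0561) and under quantile normalization (-0.42, adjusted p = 0.0775). Barx2 was at 117%, a log2 difference of 0.1 (95% interval -0.19 to 0.4, adjusted p = 0.536).

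**Figure D3:**
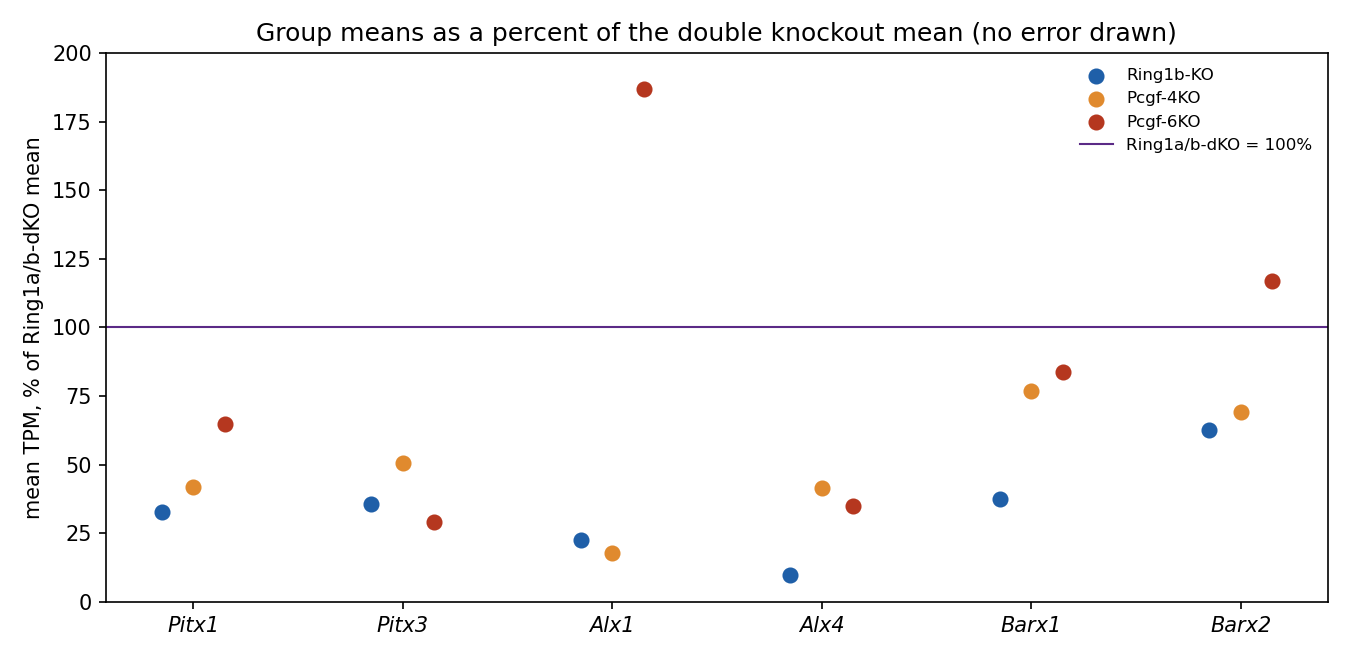
Group means as a percent of the Ring1a/b-dKO mean for the 6 genes. The vertical axis is the mean TPM as a percent of the Ring1a/b-dKO mean, drawn as points with no error for Ring1b-KO, Pcgf-4KO and Pcgf-6KO. Alx1 in Pcgf-6KO (187%) lies farthest above the line at 100%, and Alx4 in Ring1b-KO (9.83%) lies lowest.

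Pcgf-6KO, which by label lacks Pcgf2 and Pcgf4 in addition, differed from Pcgf-4KO gene by gene. From Pcgf-4KO to Pcgf-6KO, 3 of the 6 were called higher, beside 28.8% of all genes, and 1 lower, beside 24% of all genes. Alx1 had the largest difference of the 6, 2.3 on the log2 scale (limma, adjusted p = 3.21e-10). Pitx1 differed by 0.56 (adjusted p = 4.13e-04). The Barx2 difference of 0.34 (adjusted p = 0.0456) was called in 6 of 27 alternative settings, and it was 0.19 without Pcgf-6KO replicate 1. Pitx3 was lower by -0.47 (adjusted p = 0.0397), and without Pcgf-6KO replicate 3 the difference was -0.25 and was no longer called. Leaving out any 1 Pcgf-4KO library also ended that call, at -0.46 to -0.48. Alx4 differed by -0.08 (95% interval -0.27 to 0.11, adjusted p = 0.481) and Barx1 by 0.12, as given above.

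Pcgf-4KO and Ring1b-KO differed gene by gene. Of the 6 genes, 3 were called higher in Pcgf-4KO, beside 37.4% of all genes: Barx1 by 0.97 (limma, adjusted p = 5.98e-07), Alx4 by 0.42 (adjusted p = 0.001) and Pitx1 by 0.3 as above. Pitx3 (0.29, adjusted p = 0.178), Barx2 (0.07, adjusted p = 0.699) and Alx1 (-0.16) were not called. In Pcgf-6KO 5 of the 6 exceeded Ring1b-KO, beside 42.2% of all genes, by 2.13 for Alx1, 1.09 for Barx1, 0.86 for Pitx1, 0.41 for Barx2 and 0.34 for Alx4 (highest adjusted p = 0.0148). The Barx2 call was lost without Ring1b-KO replicate 1 or 3 or Pcgf-6KO replicate 1, where it was 0.26. That call was also lost after median ratio scaling (0.32), after quantile normalization (0.22) and with only the compared groups in the fit (0.41). The Alx4 call was lost under quantile normalization (0.15, adjusted p = 0.205). The comparisons share the Ring1b-KO libraries. Pitx3 had -0.18 (95% interval -0.56 to 0.21, adjusted p = 0.403), and 0.05 without Pcgf-6KO replicate 3.

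Other homeobox genes and factors of the same tissues gave a frame for these values. Of 24 other paired-class genes, 14 were tested, and Drgx was not analysed here. In Ring1b-KO 10 of the 14 were called higher and 0 lower, in Ring1a/b-dKO 12 and 2, in Pcgf-4KO 11 and 2, in Pcgf-6KO 12 and 2, and in Ring1a-KO 2 and 1. Their median log2 change was 0.64 in Ring1b-KO, 1.8 in Ring1a/b-dKO, 1 in Pcgf-4KO and 1.07 in Pcgf-6KO. Over all genes tested the shares called higher were 34.7%, 48.6%, 47.1% and 51.7% in those groups and 12.3% in Ring1a-KO. Of the 14 paired-class genes, 4 averaged 1 TPM or more in WT. The others needed knockout libraries to pass the filter, so these counts too are descriptions. Esx1, a placental homeobox gene, rose from a mean of 1.38 TPM in WT to 35.2 TPM in Ring1b-KO and 121 TPM in Pcgf-6KO. Otx2, of the forebrain and primed stem cells, fell from 13.8 TPM in WT to 4.01 TPM in Ring1a/b-dKO and 0.29 TPM in Pcgf-4KO. The log2 change of Otx2 was -1.57 in Ring1a/b-dKO and -3.53 in Pcgf-4KO. It was also called lower in Ring1a-KO (-1.54) and Pcgf-6KO (-0.44), and was not called in Ring1b-KO (-0.16). Of 19 other antennapedia-class genes outside the Hox, Nkx, Dlx and Msx families, 15 were tested. The number called higher was 12 in Ring1b-KO, 14 in Ring1a/b-dKO, 13 in Pcgf-4KO, 15 in Pcgf-6KO and 2 in Ring1a-KO, with 1 called lower in Ring1a-KO and none in the other groups. Of these 15 genes, 3 averaged 1 TPM or more in WT, and the same limit holds. Tlx3 went from 1.69 TPM in WT to 12.4 TPM in Ring1a/b-dKO, Hhex from 5.09 to 11 TPM and En2 from 1.12 to 8.64 TPM. Under quantile normalization the paired-class counts in Ring1b-KO were 5 higher and 3 lower and the antennapedia-class count was 9 higher. In Pcgf-6KO the paired-class counts were 7 higher and 3 lower with a median of 0.48 under quantile normalization, and 9 higher and 2 lower after median ratio scaling.

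Of 19 facial, limb and pharyngeal arch factors, 14 were tested. The number called higher was 11 in Ring1b-KO and 13 in each of Ring1a/b-dKO, Pcgf-4KO and Pcgf-6KO, with none called lower in these groups, against 0 higher and 1 lower in Ring1a-KO. Quantile normalization gave 10, 12, 10 and 11 higher and 1, 1, 0 and 1 lower in those 4 groups. Over all genes tested, with TPM as deposited, the shares called higher were 34.7%, 48.6%, 47.1% and 51.7% in the same order. Of the 14 factors, 3 averaged 1 TPM or more in WT, and the others needed knockout libraries to pass the filter. Twist1, of the head mesenchyme, rose from 2.11 TPM in WT to 15.4 TPM in Ring1a/b-dKO. Of 16 genes known to act downstream of PITX or BARX factors, 6 were tested, among them Tbx4, which is also counted among the factors above. In Ring1a/b-dKO 2 of the 6 were called higher and 2 lower, or 1 and 4 under quantile normalization. In the other groups the counts higher and lower were 2 and 2 in Ring1a-KO, 2 and 1 in Ring1b-KO, 2 and 3 in Pcgf-4KO, and in Pcgf-6KO 3 and 3. Tbx4, the hindlimb gene that PITX1 activates, rose from 1.41 TPM in WT to 4.25 TPM in Ring1b-KO, 13 TPM in Ring1a/b-dKO, 4.84 TPM in Pcgf-4KO and 14.1 TPM in Pcgf-6KO. Its log2 changes there were 1.13, 2.54, 1.28 and 2.64 (limma, highest adjusted p = 3.87e-07), and in Ring1a-KO it was lower by -0.78. Sfrp1 and Sfrp2 encode secreted WNT antagonists that BARX1 induces in the stomach. Sfrp1 was called higher in Ring1a-KO (log2 change 1.51) and Ring1b-KO (0.24), and called lower in Ring1a/b-dKO (-0.53), Pcgf-4KO (-0.82) and Pcgf-6KO (-2.23), where its mean was 7.79 TPM against 40.2 TPM in WT. Sfrp2 was called lower in Pcgf-4KO (-0.71) and Pcgf-6KO (-1.22), with values of -0.01 in Ring1b-KO and 0.13 in Ring1a/b-dKO that did not pass the test.

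The nearest protein-coding gene on each side was read to place each change in its locus. Of the 12 neighbours 10 were tested, all but Catsper3 and Lrriq1. They were called higher and lower 4 and 3 times in Ring1b-KO, 6 and 2 in Ring1a/b-dKO, 5 and 2 in Pcgf-4KO, 6 and 4 in Pcgf-6KO and 0 and 0 in Ring1a-KO. The shares called higher over all genes, 34.7%, 48.6%, 47.1%, 51.7% and 12.3% in the same order, were near those of the neighbours in the 4 groups other than Ring1a-KO. Median ratio scaling gave 4 and 4 in each of Ring1b-KO, Ring1a/b-dKO and Pcgf-4KO. Both neighbours of Barx1 were higher in the same 4 groups. Ptpdc1, 37334 bases away, had means of 2.05 TPM in WT, 4.36 TPM in Ring1b-KO and 8.94 TPM in Ring1a/b-dKO, a log2 change of 1.7 in the last (limma, adjusted p = 2.17e-09). Phf2, a histone demethylase gene 135243 bases away, had a log2 change of 1.19 in Ring1a/b-dKO (adjusted p = 9.82e-07). Cd82, a tetraspanin gene 179244 bases from Alx4, went from 1.07 TPM in WT to 9.46 TPM in Ring1a/b-dKO and 14.1 TPM in Pcgf-6KO. Tmem45b, 381582 bases from Barx2, rose by 1.5 in Ring1b-KO and 1.64 in Ring1a/b-dKO on the log2 scale. Other neighbours went the opposite way: Rassf9, 448971 bases from Alx1, had -0.63 in Ring1b-KO and -1 in Pcgf-6KO, and Nolc1, 50155 bases from Pitx3, had -0.72 in Ring1a/b-dKO. Gbf1, only 4183 bases from Pitx3, had 1.12 in Pcgf-6KO, where Pitx3 had 0.06.

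**Figure D4:**
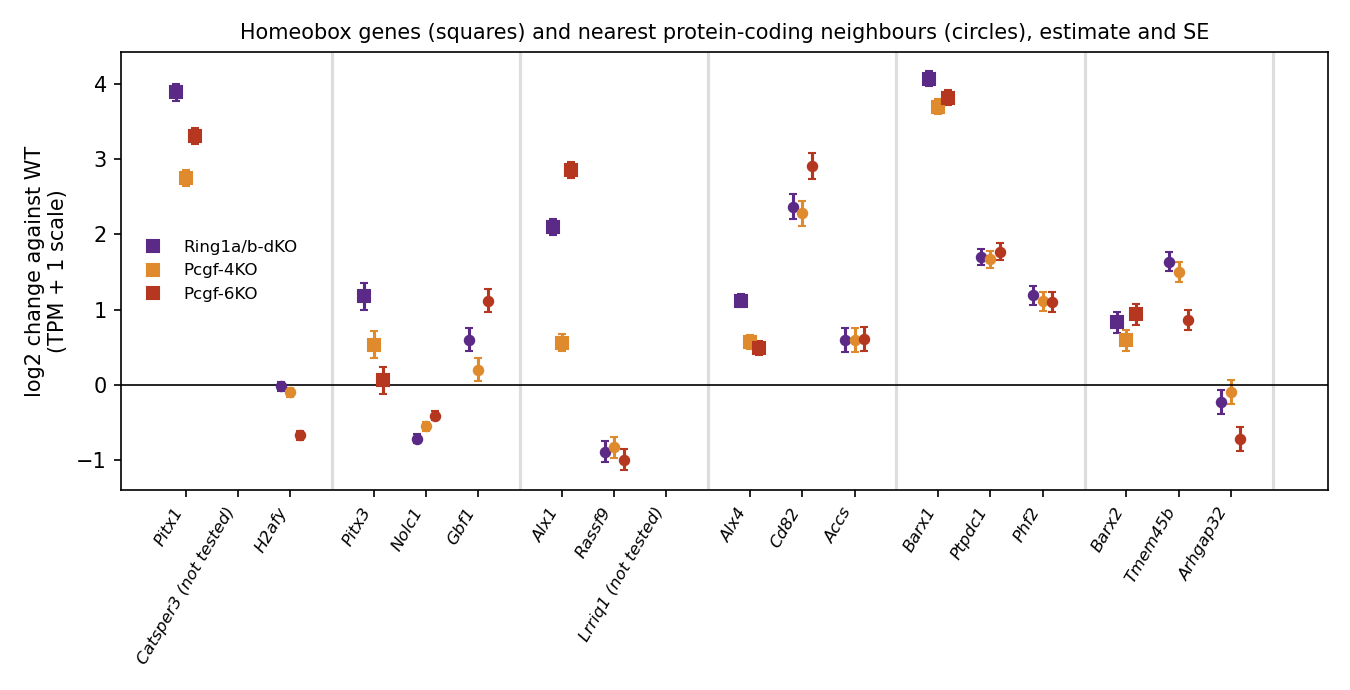
Change of each homeobox gene (squares) and its tested neighbours (circles) against WT. The vertical axis is the log2 change on the TPM + 1 scale with standard errors, and genes are grouped by locus along the horizontal axis. Ring1a/b-dKO, Pcgf-4KO and Pcgf-6KO are drawn, and the neighbours not tested have no circle. Both neighbours of Barx1 lie above 0, whereas Rassf9 beside Alx1 and Nolc1 beside Pitx3 lie below it.

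Across the 18 libraries the 6 genes did not share 1 pattern. The correlation of log2(TPM + 1) was highest between Pitx1 and Barx1 (Pearson r = 0.98) and lowest between Pitx3 and Alx1 (0.39). These values are descriptions, since the libraries fall into 6 groups with large differences. Among the 11185 or 11186 tested genes whose mean reached 5 TPM in some group, the gene most like Pitx1 was Lhx2, a LIM homeobox gene (r = 0.99). For Barx1 the nearest were 3 germ cell genes, Taf7l (0.993), Slc25a31 (0.991) and Ddx4 (0.991). For Alx1 they were Zfp68 (0.989), Plau (0.985) and Dlx2 (0.982), a factor of the pharyngeal arches and forebrain. For Alx4 they were Boc (0.981), a Hedgehog co-receptor gene, Entpd2 (0.975) and Ulk2 (0.975). Pitx3 and Barx2 had their closest matches at 0.928 (Unc119) and 0.94 (Atg101). The order differed over the 6 group means, where Lhx2 ranked 12 for Pitx1, Taf7l, Slc25a31 and Ddx4 ranked 8, 11 and 22 for Barx1, Zfp68 ranked 2 for Alx1, Boc ranked 4 for Alx4, Unc119 ranked 22 for Pitx3 and Atg101 ranked 11 for Barx2.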

How the data were processed

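The authors deposited 1 table of TPM per gene for all 18 libraries, and per the submitters' processing notes TopHat2 2.1.1, RSEM, edgeR and build GRCm38.p5 were used. What each program did, the annotation release and any use of strand were not given in the sources used here. TPM keeps no read counts, so depth is unknown and a value of 0 is reported as listed at 0. The table's 6 columns of group means were not used. Symbols and positions came from GENCODE M21 on GRCm38, and promoter sequences from RefSeq. Protein sequences were not used here.

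Values were converted to log2(TPM + 1). The 17842 genes that reached 1 TPM in 3 or more libraries were fitted in limma 3.58.1 under R 4.3.3 with 1 mean per group, 12 residual degrees of freedom and empirical Bayes with a trend. Tests were two-sided, with Benjamini-Hochberg adjustment within each of 16 comparisons, and the script was tested on simulated data. Besides markers and knocked-out genes, named genes came from the 6, their neighbours, overlapping genes, up to 3 of the highest genes of each list and the 3 genes most correlated with each of the 6. Not every neighbour, overlapping gene or correlated gene was described. Overlapping genes not described were Gm17028 (Alx1) and Gm28760 (Pitx1) on the same strand, and Gm31497 (Barx2) and Elovl3 (Pitx3) on the opposite strand. A few related genes are not reported here and were left out of the lists. The genes and lists were chosen with earlier results of these data known. Alternatives were other pseudocounts (0.1 and 0.5 TPM), filters, scalings, groups in the fit, a replicate block and leaving out each library.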

Additional observations from a re-analysis of the deposited data

Results flagged for a closer look

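The difference that goes with the Ring1b knockout was larger in the cells labelled as also lacking Ring1a for 5 of the 6 genes, by limma's interaction term at an adjusted p under 0.05. On the log2(TPM + 1) scale the term was 1.29 for Pitx1, 1.11 for Pitx3, 1.38 for Alx1, 0.97 for Alx4 and 1.02 for Barx1. Each was positive, meaning a larger change in Ring1a/b-dKO than the sum of the changes in Ring1a-KO and Ring1b-KO, and 33.2% of all genes tested were called in this direction. Barx2 (0.18) was not called, and Alx4 passed the filter through the Ring1a/b-dKO libraries alone. Rnf2 had a log2 change against WT of -0.52 in Ring1b-KO and -1.61 in Ring1a/b-dKO, while Ring1 was not called lower in Ring1a/b-dKO. The part of either in the interaction term was not tested. With a pseudocount of 0.1 TPM the Pitx1 term was 0.8 and lost its call (limma, adjusted p = 0.101).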

How the results depend on the processing

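Of the values of the 6 genes against WT under 28 alternative settings, 802 kept direction and call, 13 lost the call, 2 gained it, 7 moved without a call and 1 reversed. The cause of the changes below was not tested unless stated. Quantile normalization reversed Pitx3 in Pcgf-6KO to -0.53, Gm47071 to -0.32 in Ring1b-KO, -0.36 in Ring1a/b-dKO and -0.36 in Pcgf-6KO, Tlx3 in Ring1b-KO to -0.02, Hhex in Pcgf-6KO to -0.22, and Sfrp2 in Ring1a/b-dKO to -0.27. It left 3 of the 6 genes called higher in Pcgf-4KO, where 49.6% of the 11233 genes called were higher, and called 1 lower in Pcgf-6KO. A filter at 5 TPM left 3 called higher in each of Ring1a/b-dKO, Pcgf-4KO and Pcgf-6KO, since only Pitx1, Alx1 and Barx1 were then tested. The number called higher in Ring1a-KO was 2 with a pseudocount of 0.1 TPM, 0 with no filter, 0 with only the compared groups, and 0 to 1 leaving out 1 library at a time. Without both Ring1a-KO replicates 2 and 3, chosen after seeing the data, it was 0, and 2169 genes of the whole table were called in place of 4123. Replicate numbers do not pair the libraries: correlations of same-numbered deviations ran from -0.11 to 0.07, 0 of 45 pairs passed 0.1, and 5 of 18 libraries matched their own number best. With the replicate block, Barx1 in Pcgf-6KO against Ring1a/b-dKO (-0.25, adjusted p = 0.0563) and Barx2 in Pcgf-6KO against Pcgf-4KO (0.34, adjusted p = 0.0541) lost their calls in limma, Pitx3 in Ring1b-KO against Ring1a-KO gained one (0.41, adjusted p = 0.0362), and no other call of the 6 genes changed. Rescaling over nuclear protein-coding genes, also chosen after seeing the data, changed no call of the 6 genes against WT. TPM keeps no depth, so the reads behind levels under 1 TPM are unknown.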
